A study of Mus musculus with 6 samples.

Results

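The 9 genes described here identify microglia, the resident macrophages of the retina: Cx3cr1, P2ry12, Tmem119, Aif1, Csf1r, Trem2, Tyrobp, Ctss and Cd68. They were selected by symbol, and all 9 were present as single rows among the 30510 features of the count table. RNA of whole retina was sequenced from 3 libraries of DBA/2J (D2) and 3 libraries of C57BL/6J (B6) mice, all labelled wild type and aged 60 to 100 days. D2 is an inbred strain in which variants of Tyrp1 and Gpnmb lead to iris disease and glaucoma at older ages, and B6 is the inbred strain from which the mouse reference genome was derived. Retinas of both eyes were taken in the late morning in both strains, and RNA integrity numbers were 9.1 to 9.5. Neither the sex of the mice nor whether each library is a mouse of its own is given in the labels. The p-values therefore reflect how much these libraries vary, and that variation could be technical.

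Microglia enter the retina during development and settle in the plexiform layers, where they survey synapses with motile processes, remove debris and respond to injury of photoreceptors and ganglion cells. Their survival depends on the receptor Csf1r and its ligands Csf1 and Il34, and the chemokine Cx3cl1, made by neurons, signals to them through Cx3cr1. P2ry12 senses nucleotides released from damaged cells, Trem2 binds lipids and lipoproteins and signals through the adaptor Tyrobp (also called DAP12), and Tmem119 is a surface protein used to tell microglia from other macrophages. Aif1 encodes the actin-binding protein IBA1, Ctss the lysosomal protease cathepsin S and Cd68 a glycoprotein of the lysosomal membrane. Among the members, at least Aif1, Csf1r, Trem2, Tyrobp, Ctss and Cd68 are also expressed by other macrophages.

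The question was which of these transcripts differ in level between the retinas of the strains. Tyrobp was 1.72-fold and Tmem119 1.52-fold lower in D2, and the other 7 genes did not pass the test. No member rose by the quasi-likelihood test of edgeR (adjusted p by Benjamini-Hochberg under 0.05), and 0 were higher at an unadjusted p under 0.05 or by DESeq2 or limma-voom. An unadjusted p under 0.05 was reached by 3 members, against 39.3% of all genes tested. Of all 18588 genes tested, 29.7% passed in either direction and 15.3% were lower in D2, and among the 7382 tested genes with a mean count in the range of the members (23.3 to 503 per library) 27.2% passed and 15.5% were lower. The 2 of 9 members that passed are a share close to these backgrounds. The log2 fold change, D2 minus B6, was negative for 7 of the 9 members, against 49% of all tested genes, and the median was -0.20 over the members against 0.0046 over all tested genes. For a transcript that is lower in whole retina, fewer cells that express it and less of it per cell cannot be told apart.

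The 9 genes together held 990, 1093 and 1245 counts in D2 replicates 1, 2 and 3, against 1744, 1676 and 1114 counts in B6 replicates 1, 2 and 3. The libraries themselves held 29417002 to 34478751 counts in D2 and 31305777 to 43719666 in B6. As CPM, the counts divided by library size and TMM factor, they summed to 34.6 ± 1.12 in D2 and 38.8 ± 2.63 in B6 (SD, n = 3), and D2 replicate 3 and B6 replicate 3 met at 35.8. Counting error alone is 13% of the pooled D2 count for the least counted gene, Trem2, and 2.76% for the most counted, Csf1r (100 divided by the square root of the count).

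**Figure D1:**
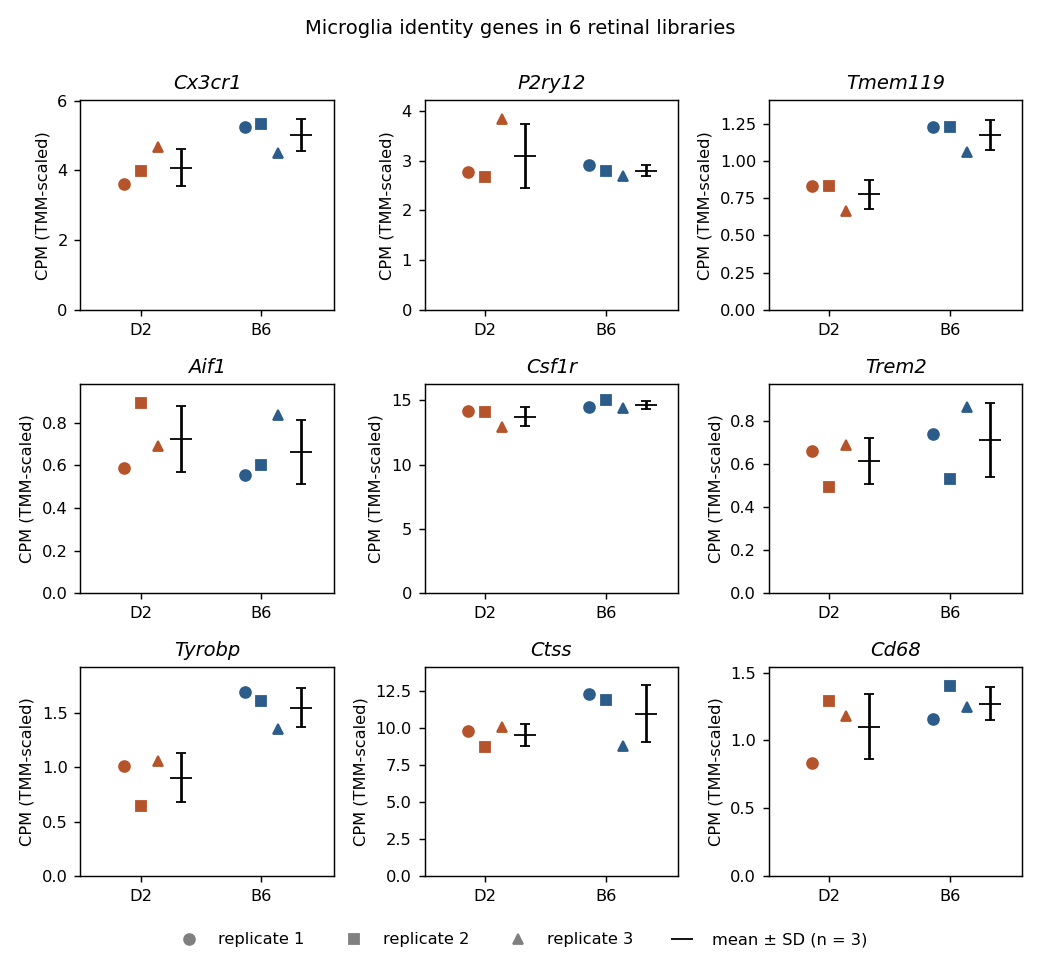
CPM of each microglia identity gene on the vertical axis, with D2 left and B6 right. Each point is 1 library, its shape the replicate number, and the bar is the mean with its SD (n = 3). The strains separate in Tyrobp, Tmem119 and, by a narrow gap, Csf1r, with D2 lower in each, and overlap in the other 6 genes.

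Among the members the adaptor Tyrobp (mm10 chromosome 7, 30413760 to 30417585, plus strand) had the largest difference. It had 29, 21 and 37 counts in D2 replicates 1, 2 and 3, which is 1.01, 0.646 and 1.06 CPM, against 73, 67 and 42 counts in B6, which is 1.69, 1.61 and 1.35 CPM. All D2 libraries lay below all B6 libraries, and D2 replicate 2 was the lowest of the 6. The means were 0.905 ± 0.227 CPM in D2 and 1.55 ± 0.177 CPM in B6 (SD, n = 3), a log2 fold change of -0.78 ± 0.22 (standard error; 95% confidence interval -1.25 to -0.32; adjusted p = 0.0124). Without D2 replicate 2 the log2 fold change was -0.59 and the call was lost (adjusted p = 0.0563), and under the other 13 alternatives Tyrobp passed. D2 replicate 2 also had the highest D2 levels of the pigment epithelium genes Rgr, at 51.4 CPM against 14.8 CPM in each of the other D2 libraries, and Rpe65, at 23.2 CPM against 7.80 and 5.96 CPM. In B6, Rgr ran from 18.9 to 52.4 CPM and Rpe65 from 7.98 to 28.7 CPM, both highest in replicate 3. Their part in the Tyrobp value was not tested.

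Tmem119 (chromosome 5, 113793729 to 113800516, minus strand), the surface protein most specific to microglia among the members, had 24, 27 and 23 counts in D2 and 53, 51 and 33 in B6. These are 0.832, 0.830 and 0.662 CPM in D2 replicates 1, 2 and 3, against 1.23, 1.23 and 1.06 CPM in B6. The strains did not overlap, with the highest D2 library below the lowest B6 library. The log2 fold change was -0.61 ± 0.21 (95% confidence interval -1.06 to -0.15; adjusted p = 0.0429), close to the threshold, and the call was lost under 8 of 14 alternatives while the direction stayed negative in all 14. Leaving out any library but B6 replicate 3 ended it, with adjusted p from 0.0585 to 0.161.

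The survival receptor Csf1r (chromosome 18, 61100598 to 61132149, plus strand) was the most counted member and had the narrowest interval. It stood at 14.2, 14.1 and 12.9 CPM in D2 replicates 1, 2 and 3, against 14.5, 15 and 14.4 CPM in B6. The strains did not overlap, but D2 replicates 1 and 2 came close to the lowest B6 library. The log2 fold change of -0.09 ± 0.06 did not pass (95% confidence interval -0.23 to 0.04; adjusted p = 0.281), an interval that holds ratios of D2 to B6 from 0.855 to 1.03. Csf1r shares 873 of its 5774 annotated exon bases (15.1%) with Hmgxb3 on the opposite strand. No source used here states whether counting was by strand, which leaves the assignment of counts in that stretch uncertain. Hmgxb3 had a log2 fold change of -0.01 ± 0.05 (adjusted p = 0.946). Of the 9 members, 3 had all D2 libraries below all B6 libraries and none had the reverse, against 20.9% and 21.4% of all tested genes.

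The chemokine receptor Cx3cr1 (chromosome 9, 119901616 to 120069879, minus strand) stood at 3.61, 3.97 and 4.66 CPM in D2 and 5.23, 5.32 and 4.50 CPM in B6. D2 replicate 3 lay above B6 replicate 3, and those libraries alone made the strains overlap. Its log2 fold change of -0.30 ± 0.12 had an unadjusted p of 0.0264 and an adjusted p of 0.0783, and it passed without D2 replicate 3 (-0.41, adjusted p = 0.0324) or without B6 replicate 3 (-0.37, adjusted p = 0.0451). The nucleotide receptor P2ry12 (chromosome 3, 59216272 to 59262871, minus strand) had 2.77, 2.68 and 3.83 CPM in D2 against 2.91, 2.79 and 2.70 CPM in B6. Here D2 replicate 3 was the highest of the 6 libraries and the other 5 lay close together. The log2 fold change was 0.15 ± 0.15 (95% confidence interval -0.18 to 0.47; adjusted p = 0.518), and without D2 replicate 3 it turned to -0.04 (adjusted p = 0.878). P2ry12 lies inside Med12l, on the opposite strand, and shares 9 exon bases with it. Med12l was lower in D2 (log2 fold change -0.20 ± 0.04, adjusted p = 0.00178).

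Trem2 (chromosome 17, 48346401 to 48354147, plus strand), the receptor that signals through Tyrobp, was among the least counted members, with 19, 16 and 24 counts in D2 and 32, 22 and 27 in B6. At 0.659, 0.492 and 0.691 CPM in D2 against 0.740, 0.530 and 0.868 CPM in B6 the libraries of the strains interleaved. Its log2 fold change of -0.20 ± 0.27 did not pass (95% confidence interval -0.78 to 0.39; adjusted p = 0.641). Aif1 (chromosome 17, 35170991 to 35176068, minus strand) had 0.589, 0.892 and 0.691 CPM in D2 and 0.555, 0.602 and 0.836 CPM in B6. The strains overlapped fully, and the log2 fold change of 0.16 ± 0.27 (adjusted p = 0.711) became -0.02 without D2 replicate 2, the highest library. At these depths the interval of Trem2 holds a difference the size of that of Tmem119, -0.61, and the interval of Aif1 ends at -0.41.

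Ctss (chromosome 3, 95526786 to 95556403, plus strand), the protease, had 9.85, 8.73 and 10.1 CPM in D2 replicates 1, 2 and 3, against 12.3, 11.9 and 8.81 CPM in B6. B6 replicates 1 and 2 lay above the D2 libraries and B6 replicate 3 lay among them. The log2 fold change of -0.21 ± 0.11 (95% confidence interval -0.45 to 0.02) did not pass (adjusted p = 0.162), and without B6 replicate 3 it was -0.34 and passed (adjusted p = 0.006). Cd68 (chromosome 11, 69664213 to 69666153, minus strand) had 0.832, 1.29 and 1.18 CPM in D2 against 1.16, 1.40 and 1.25 CPM in B6. D2 replicate 1 alone was clearly below the others, and the log2 fold change of -0.19 ± 0.21 did not pass (95% confidence interval -0.64 to 0.25; adjusted p = 0.538). B6 replicate 3 was the lowest B6 library for 6 of the 9 members, and without it 4 members were lower in D2: Tyrobp, Tmem119, Ctss and Cx3cr1. Of all genes tested without that library, 2655 of 18847 were lower in D2. Leaving out the lowest B6 library of a gene raises its B6 mean, so the added calls of Ctss and Cx3cr1 are not support for a difference.

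**Figure D2:**
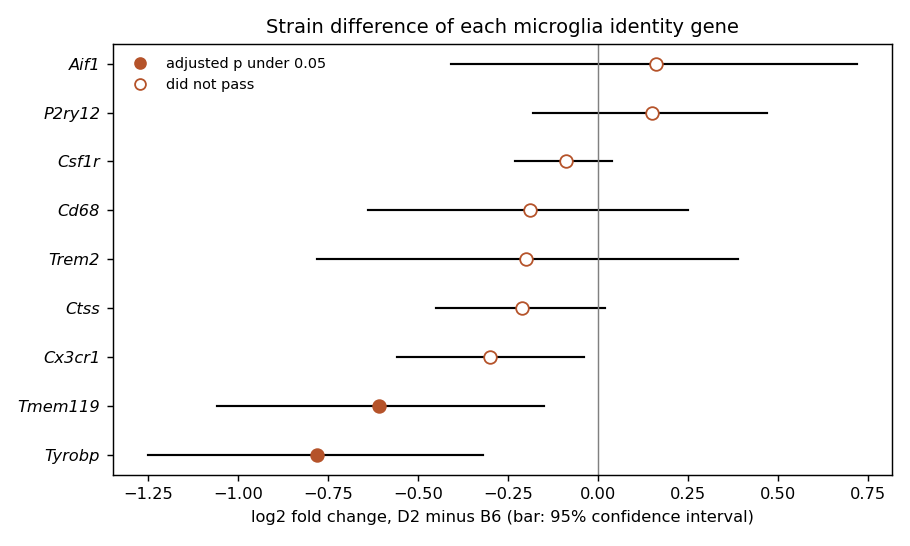
Log2 fold change, D2 minus B6, of each member with its 95% confidence interval, ordered from the most positive at the top. Filled points passed at an adjusted p under 0.05: Tyrobp at -0.78 and Tmem119 at -0.61. The intervals of the other 7 genes run from -0.78 at the lowest end (Trem2) to 0.72 at the highest (Aif1), and that of Cx3cr1 ends just below 0 although its adjusted p was 0.0783.

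Relative to Csf1r in the same library, the same 2 genes stood apart. Such ratios do not depend on library size, but they reuse the same counts and so are not separate support. For every 100 counts of Csf1r there were 7.09, 4.59 and 8.22 counts of Tyrobp in D2 replicates 1, 2 and 3, against 11.6, 10.8 and 9.35 in B6. Tmem119 had 5.87, 5.90 and 5.11 counts per 100 of Csf1r in D2 and 8.45, 8.19 and 7.35 in B6, again with no overlap. Cx3cr1 had 25.4, 28.2 and 36 in D2 against 36, 35.5 and 31.2 in B6, and P2ry12 had 19.6, 19.0 and 29.6 in D2 against 20.1, 18.6 and 18.7 in B6. Both overlapped between the strains, with D2 replicate 3 high for each. The receptors Cx3cr1 and P2ry12 did not keep the same ratio: there were 76.9, 67.4 and 82.1 counts of P2ry12 per 100 of Cx3cr1 in D2 and 55.8, 52.5 and 60.0 in B6. These ratios are descriptions and were not tested.

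**Figure D3:**
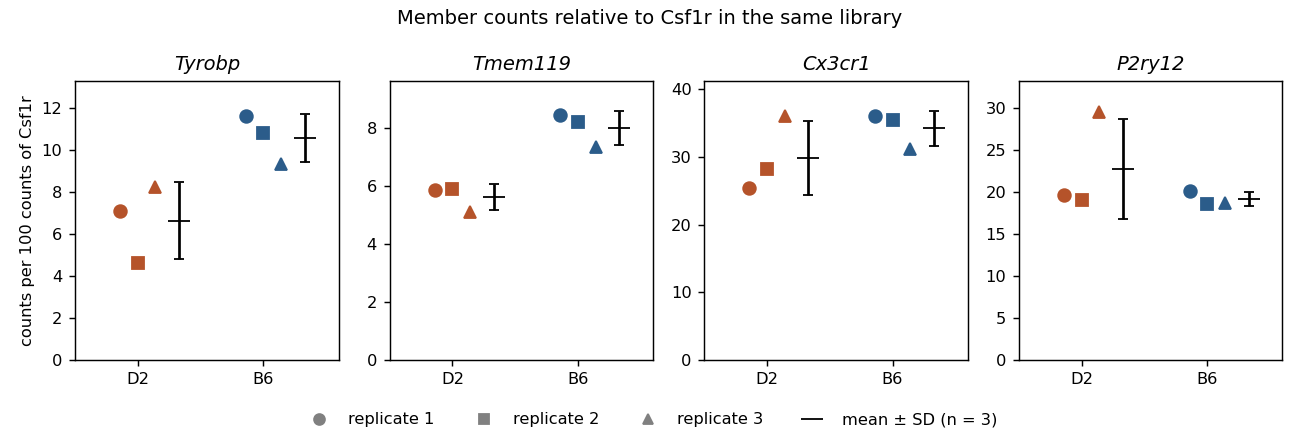
Counts of Tyrobp, Tmem119, Cx3cr1 and P2ry12 per 100 counts of Csf1r on the vertical axis, with D2 left and B6 right in each panel. Points are libraries and bars are means with SD (n = 3). Tyrobp and Tmem119 are lower in each D2 library than in any B6 library, while Cx3cr1 and P2ry12 overlap.

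Between genes, levels were compared per kilobase of the annotated principal transcript. On this scale of CPM per kilobase, Ctss was highest with 7.06 ± 0.537 in D2 and 8.12 ± 1.41 in B6 (SD, n = 3), followed by Csf1r with 2.92 ± 0.146 in D2 and 3.12 ± 0.066 in B6. Tyrobp, P2ry12, Cx3cr1, Cd68, Aif1, Trem2 and Tmem119 followed in that order of the mean over all 6 libraries, from 2.18 for Tyrobp to 0.434 for Tmem119. Ctss was separated from Csf1r over all libraries, and from Csf1r downward the ranges of neighbours overlapped. Within a library the order was still kept by Csf1r over Tyrobp, Tyrobp over P2ry12, and Cd68 over Aif1 in 6 of 6 libraries, and by P2ry12 over Cx3cr1 in 6 of 6, while Cx3cr1 exceeded Cd68 in 4 of 6. Aif1 exceeded Trem2, and Trem2 exceeded Tmem119, in 5 of 6. The order at the bottom depends on the length used: with the 4946 bases of all annotated exons of Trem2, which include a retained intron, in place of its principal transcript of 1088 bases, Trem2 ranked last at 0.134 CPM per kilobase.

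Promoter sequence is shown for 3 of the 4 members in which the core recognised by PU.1 was found. PU.1, the ETS factor encoded by Spi1, is known to control many macrophage genes. RefSeq promoters (GRCm38.p6) were listed for 6 members, P2ry12, Ctss, Cx3cr1, Cd68, Aif1 and Trem2, and Csf1r, Tmem119 and Tyrobp were not listed. The 250 bases before the start site were searched on both strands for GAGGAA, in capitals below (TTCCTC where it lies on the opposite strand), and no other motif was searched. The stretches are chr17:48346151-48346400 of the plus strand for Trem2, chr3:95526536-95526785 of the plus strand for Ctss and chr11:69666171-69666420 of the minus strand for Cd68, each written 5′ to 3′.
Trem2: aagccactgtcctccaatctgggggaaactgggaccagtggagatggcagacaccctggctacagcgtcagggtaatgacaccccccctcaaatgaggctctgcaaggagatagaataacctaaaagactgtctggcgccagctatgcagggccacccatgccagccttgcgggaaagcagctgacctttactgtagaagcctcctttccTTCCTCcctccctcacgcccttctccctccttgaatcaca
Ctss: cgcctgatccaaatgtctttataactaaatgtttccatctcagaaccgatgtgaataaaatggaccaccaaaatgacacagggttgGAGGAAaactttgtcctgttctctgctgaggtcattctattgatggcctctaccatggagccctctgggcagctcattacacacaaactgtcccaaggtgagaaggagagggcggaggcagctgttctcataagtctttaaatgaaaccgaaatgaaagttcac
Cd68: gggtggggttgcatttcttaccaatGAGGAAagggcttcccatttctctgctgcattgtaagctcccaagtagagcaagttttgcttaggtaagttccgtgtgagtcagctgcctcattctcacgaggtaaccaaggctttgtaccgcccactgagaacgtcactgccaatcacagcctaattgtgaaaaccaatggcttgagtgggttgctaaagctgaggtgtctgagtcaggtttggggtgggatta
The match begins at position -40 from the start site in Trem2, -164 in Ctss and -225 in Cd68. Aif1, whose sequence is not shown, also held a match, at position -7. The start sites are those of RefSeq. The GENCODE span of Aif1 given above reaches to 35176068, so its match lies inside that span. The stretch searched for Cx3cr1 also lies inside the GENCODE span of that gene. In all, 4 of the 6 promoters held the motif, against 23.3% of the 32851 promoters listed in that table. None of these 4 genes passed the test between the strains, and a match of 6 letters is a description and not a binding site. Spi1 itself had 4, 3 and 5 counts in D2 and 7, 8 and 12 in B6, too few to be tested.

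The ligands of Cx3cr1 and Csf1r did not pass the test, while 2 ligands of Trem2, Apoe and Clu, were lower in D2. Cx3cl1, the ligand of Cx3cr1, stood at 43.8, 43.0 and 43.2 CPM in D2 against 45.0, 46.1 and 48.6 CPM in B6, without overlap (log2 fold change -0.10 ± 0.04, adjusted p = 0.0856). The Csf1r ligands Csf1 (3.33 ± 0.500 CPM in D2 and 3.96 ± 0.535 CPM in B6; adjusted p = 0.204) and Il34 (4.67 ± 0.657 CPM in D2 and 4.76 ± 0.435 CPM in B6; adjusted p = 0.886) overlapped between the strains. Of the signalling genes downstream of Tyrobp, none passed: log2 fold changes were 0.38 ± 0.31 for the kinase Syk (adjusted p = 0.393), and for the phospholipase Plcg2 -0.43 ± 0.18 (adjusted p = 0.0942) and for the phosphatase Inpp5d 0.20 ± 0.15 (adjusted p = 0.356). The related adaptor Hcst had 1, 2 and 3 counts in D2 and 8, 7 and 3 in B6 and was not tested. Of the 13 tested genes of this list of ligands and partners 3 were lower in D2, the apolipoproteins Apoe (log2 fold change -0.59 ± 0.05, adjusted p = 1.94e-07) and Clu (-0.52 ± 0.04, adjusted p = 9.48e-08), both ligands of Trem2 and both strongly expressed by retinal glia, and Smad3 (-0.13 ± 0.05, adjusted p = 0.0473), a mediator of TGF-beta signals. The counts of this list and of those that follow stand beside 15.3% of all tested genes lower and 14.5% higher in D2. The call of Smad3 was lost under 8 of 14 alternatives, those of Apoe and Clu under none of the 14.

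All 3 chains of C1q, the initiator of the classical complement pathway that microglia produce, were lower in D2. C1qb had 2.12, 1.26 and 1.53 CPM in D2 against 3.82, 4.94 and 3.96 CPM in B6 (log2 fold change -1.39 ± 0.18, adjusted p = 2.3e-05). C1qc had 1.56, 1.41 and 1.55 CPM in D2 and 3.84, 3.54 and 3.73 CPM in B6 (log2 fold change -1.29 ± 0.14, adjusted p = 3.48e-06). Both were more than 2-fold lower, beyond the difference of any of the 9 members. C1qa, at 3.54, 2.64 and 3.65 CPM in D2 against 4.37, 4.55 and 3.99 CPM in B6, differed less (log2 fold change -0.40 ± 0.13, adjusted p = 0.0358) and lost its call under 4 of 14 alternatives, DESeq2 and leaving out D2 replicate 2, B6 replicate 1 or B6 replicate 2.

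Among 15 other homeostatic microglia genes 5 were lower in D2 and 1, Bin1, was higher (0.16 ± 0.03, adjusted p = 0.00161), where 15.3% of all tested genes were lower and 14.5% higher. Their median log2 fold change was -0.44, and the 5 became 3 under DESeq2 or without D2 replicate 1, D2 replicate 2 or B6 replicate 2. The Fc receptor-like gene Fcrls had 0.173, 0.154 and 0.0863 CPM in D2 against 0.809, 0.915 and 0.933 CPM in B6 (log2 fold change -2.67 ± 0.33, adjusted p = 1.99e-05). These levels rest on few counts, 5, 5 and 3 in D2 and 35, 38 and 29 in B6. The Golgi protein gene Golm1 was also lower (-0.39 ± 0.09, adjusted p = 0.00471). Bin1 and Golm1 are widely expressed, so in whole retina their levels are not those of microglia alone. P2ry13, a nucleotide receptor next to P2ry12 in the genome, had a log2 fold change of -0.20 ± 0.17 (adjusted p = 0.436), and Gpr34 one of -0.04 ± 0.17 (adjusted p = 0.897).

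Of 17 genes common to macrophages and leukocytes 8 were lower in D2 and the other 9 did not pass, with a median of -0.69, where 15.3% of all tested genes were lower. The actin-bundling protein gene Lcp1 fell to 0.814 ± 0.0586 CPM in D2, against 1.66 ± 0.280 CPM in B6 (SD, n = 3; log2 fold change -1.03 ± 0.20, adjusted p = 0.00121). Both the Src-family kinase Lyn (-0.74 ± 0.16, adjusted p = 0.00201) and the NADPH oxidase subunit Cybb (-1.53 ± 0.34, adjusted p = 0.00287) were lower as well, and so was Fcer1g, the Fc receptor gamma chain (-1.05 ± 0.27, adjusted p = 0.00879), which like Tyrobp is an adaptor with an ITAM motif. Cybb had only 7, 7 and 6 counts in D2 and 28, 29 and 14 in B6. The integrin subunit gene Itgam, which encodes CD11b, and Ptprc, which encodes CD45, did not pass (-0.19 ± 0.18, adjusted p = 0.489, and -0.34 ± 0.21, adjusted p = 0.258). Coro1a, the most abundant of the list, had -0.04 ± 0.10 (adjusted p = 0.804). The count of 8 was 5 under DESeq2 and without D2 replicate 2.

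**Figure D4:**
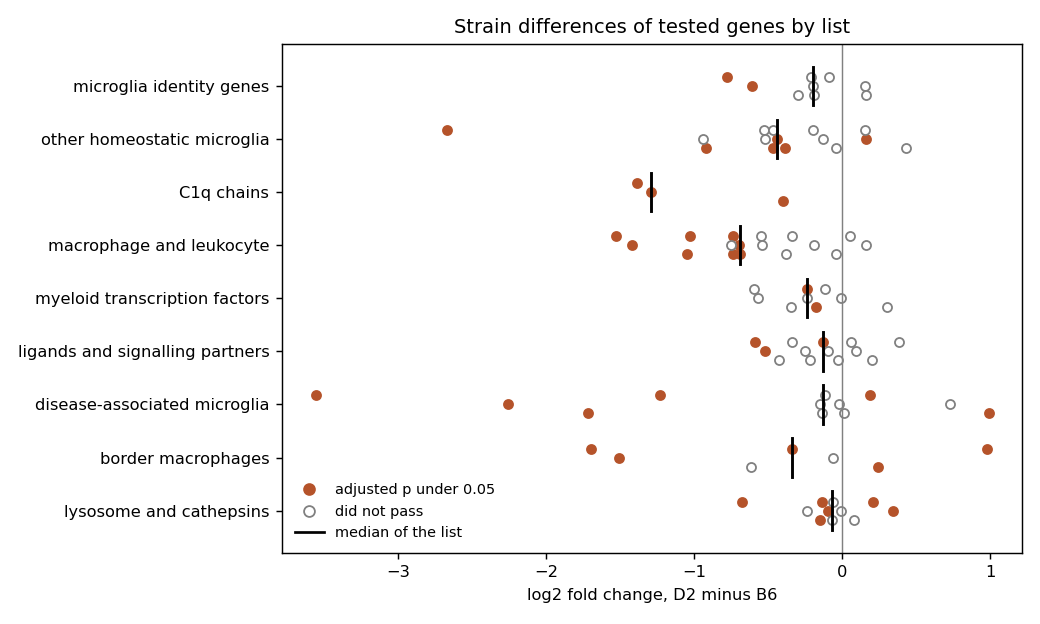
Log2 fold change, D2 minus B6, of each tested gene in the microglia identity list and 8 related lists. Filled points passed at an adjusted p under 0.05, open points did not, and the black bar is the median of the list. The median was -0.20 for the identity genes, -0.44 for other homeostatic microglia genes, -0.69 for macrophage and leukocyte genes and -1.29 for the C1q chains.

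Of 9 tested myeloid transcription factors 2 were lower, among them Mef2c (-0.18 ± 0.03, adjusted p = 0.00055), which neurons also express. Irf8 did not pass (0.30 ± 0.27, adjusted p = 0.453). In the list of 15 genes known to rise in disease-associated microglia, 12 were tested, of which 2 were higher and 4 lower in D2, with a median of -0.13. Lysozyme Lyz2 stood at 1.04, 0.615 and 0.950 CPM in D2 against 2.59, 3.13 and 2.86 CPM in B6 (-1.72 ± 0.19, adjusted p = 6.88e-06). Gpnmb, which carries a truncating variant in D2, had 0.748 ± 0.343 CPM in D2 and 8.58 ± 4.85 CPM in B6 (-3.56 ± 0.39, adjusted p = 5.32e-06), and osteopontin, Spp1, was lower too (-1.23 ± 0.17, adjusted p = 4.12e-05). The galectin gene Lgals3 was higher in D2 (0.99 ± 0.18, adjusted p = 0.000607), and Igf1, the most abundant of the list, had 0.01 ± 0.04 (adjusted p = 0.897). Gpnmb and Spp1 are also expressed outside microglia in the eye.

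Beside Ctss and Cd68, 11 other lysosomal genes were tested, of which 2 were higher and 4 lower in D2, with a median of -0.07. Cathepsin C, Ctsc, was lower (-0.68 ± 0.08, adjusted p = 9.81e-06), while cathepsin L, Ctsl (0.34 ± 0.04, adjusted p = 7.98e-06), and the cathepsin inhibitor cystatin C, Cst3 (0.21 ± 0.03, adjusted p = 0.000257), were higher. Cst3, at 468 ± 7.27 CPM in D2 and 405 ± 4.56 CPM in B6 (SD, n = 3), is made by many retinal cells. Of 7 tested genes of border macrophages, which lie along vessels, 3 were lower, including the mannose receptor Mrc1 (0.936, 0.369 and 0.115 CPM in D2 against 1.64, 1.42 and 1.35 CPM in B6; -1.70 ± 0.39, adjusted p = 0.00407) and F13a1 (-1.51 ± 0.43, adjusted p = 0.0139). The scavenger receptor Stab1 was the other, with an adjusted p of 0.0358, and lost its call under 5 of 14 alternatives: DESeq2 and leaving out D2 replicate 2, D2 replicate 3, B6 replicate 1 or B6 replicate 2. Lyve1 and Clec10a of the same list were higher (0.24 ± 0.08, adjusted p = 0.0277, and 0.98 ± 0.34, adjusted p = 0.0424). Mrc1 had 27, 12 and 4 counts in D2 and 71, 59 and 42 in B6. Its call was lost under DESeq2 (adjusted p = 0.0972), and its log2 fold change ranged from -2.61 to -1.20 over the alternatives. F13a1 had 10, 8 and 2 counts in D2 and 21, 31 and 18 in B6, and lost its call without D2 replicate 3 or B6 replicate 2. Lyve1 lost it under DESeq2 and without D2 replicate 2, D2 replicate 3, B6 replicate 2 or B6 replicate 3. Clec10a lost it under DESeq2, with no filter beyond 1 count and without any library but D2 replicate 3.

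Blood leukocytes gave few counts. Of the 8 monocyte and neutrophil genes 2 were detected well enough to be tested and neither passed, with a summed level of 1.73 to 1.98 CPM in D2 and 1.58 to 1.85 CPM in B6, unscaled. The T cell genes Cd3e and Cd3g and the cytotoxic gene Nkg7 had 0 counts in each library, where 3 counts would be 0.0870 to 0.102 CPM in D2 and 0.0686 to 0.0958 CPM in B6. Haemoglobin and Alas2, markers of erythrocytes, summed to 128 to 255 CPM in D2 and 70.9 to 110 CPM in B6, and 4 of the 5 were higher in D2. Of these, Hba-a2, Hbb-bs and Hbb-bt lost their calls under DESeq2, and Hba-a2 also without D2 replicate 1 or B6 replicate 1. Within D2, Hba-a1 stood at 81.3 CPM in replicate 1 against 41.5 and 39.7 CPM in replicates 2 and 3. The pigment epithelium list ranged from 36 to 126 CPM in D2 and from 51.0 to 152 CPM in B6. None of its 5 genes passed in the edgeR fit used for the calls above. Without D2 replicate 2, 4 of the 5 were lower in D2: Rgr (adjusted p = 0.00794), Rpe65 (adjusted p = 0.0204), Lrat (adjusted p = 0.0234) and Ttr, which also passed with no filter beyond 1 count, with the replicate number as a block and without B6 replicate 1. Over the 14 alternatives the log2 fold change of Rgr ranged from -1.24 to 0.00 and that of Rpe65 from -1.35 to 0.01, against -0.37 and -0.49 with all libraries. Müller glia summed to 4120 to 4440 CPM in D2 and 4310 to 4710 CPM in B6, with 2 of 7 genes lower. Of the tested endothelial genes 1 of 6 was higher and 2 were lower, and 1 of 4 pericyte and 1 of 3 astrocyte genes were lower. Neither of the 2 tested lymphocyte genes passed. The part of these other cells in the values of the members was not tested.

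In the authors' deposited table, which holds 18100 genes on a scaled axis, the false discovery rate was 0.00012 for Tyrobp, 0.0124 for Tmem119, 0.0375 for Ctss and 0.0476 for Cx3cr1. Of all genes, 40.9% had a rate under 0.05 in the authors' deposited table. Tyrobp was the one member flagged there as differentially expressed, a flag held by 1665 of the 18100 genes. The flag was stricter than a rate under 0.05, as the highest rate of a flagged gene was 0.000996. A separate entry there, for exceeding a cutoff, held for Tyrobp and Tmem119 and for no other member. Tmem119 thus met that cutoff without being flagged. The other 5 members had rates of 0.146 to 0.533 in the authors' deposited table.

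The mean profile of the members over the 6 libraries, each gene centred on its own mean log2 CPM, was -0.16, -0.16 and -0.03 in D2 replicates 1, 2 and 3, against 0.14, 0.12 and 0.09 in B6. Among 14449 genes whose log2 CPM averaged at least 1, the profiles with the smallest root mean square difference from it, 0.0136 to 0.0255 on the log2 scale, were those of Cyb5r4, Pign, Rrn3, Cav1 and Hist2h4. None of these is a listed microglia or macrophage gene. Of the 50 such listed genes compared, Mef2c and Tgfbr2 came closest, at 0.0576 and 0.0581, which placed them at ranks 332 and 351 among all genes. With 6 libraries of 2 strains, such likeness is a description only.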

How the data were processed

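Per the labels, total RNA of D2 and B6 retinas was made into stranded libraries, and mm10, STAR, SAMtools, FastQC and edgeR appear in the submitters' processing notes. No source used here gives the counter, annotation, versions or strand setting. Raw counts for each gene symbol were deposited without normalization, and so was a table in which the authors gave strain means as expression scores on a scaled axis. The false discovery rate in the authors' deposited table is an adjusted p-value of their comparison.

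Counts were filtered with filterByExpr, scaled by TMM factors and fitted with edgeR 4.0.16 in R 4.3.3 (quasi-likelihood test of D2 minus B6, Benjamini-Hochberg over 18588 genes, threshold 0.05). All 9 members passed the filter. No libraries had identical values, and each pair differed by more than sampling noise. Coordinates and lengths are from GENCODE M21 for mm10, and promoters are from RefSeq. How variants of D2 bear on alignment to mm10, which is B6 sequence, was not analysed here.

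The members, lists and tests were chosen with earlier results of these data known. All members are named, with the listed ligands, partners and C1q chains, up to 3 members of each related list with the lowest adjusted p and its most abundant gene. Itgam, Ptprc, Fcer1g, P2ry13, Gpr34, Lgals3, Bin1, Clec10a and the genes of other cell types were added after their values were seen. Golm1 and Stab1 are also outside this rule, while Bin1 falls within it by its adjusted p. Some genes that this rule would name are not reported here. Alternatives were DESeq2 1.42.0 size factors, its Wald test, upper quartile factors, limma 3.58.1 voom, 2 other filters, removal of abundant RNAs, a block for replicate number, and each library left out in turn. Scripts were tested on simulated data.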

Additional observations from a re-analysis of the deposited data

How the results depend on the processing

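Of 124 values of the 9 members under 14 alternatives, 110 kept their direction and their side of the threshold, 9 lost a call, 3 gained one and 2 reversed. The reversals were Aif1 without D2 replicate 2 (-0.0198) and P2ry12 without D2 replicate 3 (-0.0434), neither of which passed; with a library left out, Aif1 ranged from -0.0198 to 0.329 and P2ry12 from -0.0434 to 0.243. The number of members lower in D2, 2 of 9, was 1 (Tyrobp) under the DESeq2 Wald test, with no filter beyond 1 count and with the replicate number as a block (5093 genes called in all, against 5524). Leaving out a library gave 0 to 4 members: 0 without D2 replicate 2 (2 at an unadjusted p under 0.05, by edgeR), 4 without B6 replicate 3. The cause was not tested. All genes lower in D2 numbered 2545 of 18863 tested without D2 replicate 2 and 2655 of 18847 without B6 replicate 3. Same-numbered libraries of the strains had correlations of their deviations from the strain mean of 0.146, 0.037 and -0.141 over 14373 genes. Differently numbered libraries ran from -0.306 (D2 replicate 2 with B6 replicate 1) to 0.297 (D2 replicate 2 with B6 replicate 3). Such correlations cannot show whether libraries were handled in pairs. In lists checked after seeing the data, macrophage and leukocyte genes lower in D2, 8 in the report, numbered 5 under the DESeq2 Wald test and, with 9 of 17 tested, 5 at 1 CPM in 3 libraries, and 5 to 9 with a library left out. Other homeostatic genes, 5 in the report, numbered 3 under the DESeq2 Wald test, 3 at 1 CPM in 3 libraries, where 10 of 15 were tested, and 3 to 5 with a library left out. The count of genes called in all ranged from 4453 (DESeq2) to 5774. Trem2, Aif1, Tmem119, Cd68 and Tyrobp had under 75 counts in every library, which limits what could be detected.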
